A study of Homo sapiens with 27 samples.

Results

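The genes described here are 4 receptor-interacting protein (RIP) kinases and the NOD signalling complex that RIPK2 serves, namely RIPK1, RIPK2, RIPK3, RIPK4, NOD1, NOD2, XIAP, MAP3K7, TAB2 and IKBKG. They were found by their symbols in the first column of each count table. Each table held 9 of the 10 symbols, among 24379 symbols for 22Rv1, 23532 for DU145 and 23462 for PC3, and RIPK3 is not analysed here. The libraries were bulk RNA sequencing of 22Rv1, DU145 and PC3, 3 established human lines of prostate cancer cells. Cells with control gRNA 1, labelled WT, gave 3 libraries per line, and cells labelled RIPK2 knockout gave 6, 3 for each of 2 guide RNAs. The guides were gRNA 1 and gRNA 10 in 22Rv1, and gRNA 2 and gRNA 10 in DU145 and in PC3. No treatment or time is labelled for any group, and the labels do not say whether an edited population was a clone or a pool, nor do they give the guide sequences.

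NOD1 and NOD2 are cytosolic sensors of bacterial cell wall peptidoglycan. When they bind it they recruit the kinase RIPK2, to which the ubiquitin ligase XIAP and related ligases attach ubiquitin chains. The adaptor TAB2 binds those chains and brings the kinase TAK1, encoded by MAP3K7, and the IKK complex with its scaffold NEMO, encoded by IKBKG, which leads to activation of NF-kB and MAP kinases. RIPK1 plays the scaffold role below the TNF receptor, RIPK3 is its partner in necroptosis, and RIPK4 is a relative best known from keratinocyte differentiation.

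Counts per library summed to between 17958558 and 20650819, and 3 counts, the floor used here, corresponded to between 0.145 and 0.167 CPM, the count unit scaled to library size that is used below. The library of 22Rv1 gRNA 1 replicate 3 stood apart, with 16.6% of its counts from mitochondrial genes against 0.515 to 2.10% in the other 22Rv1 libraries. DU145 gRNA 2 replicate 3 lay at the edge of its line with 2.89% against 1.26 to 2.77%. Its TMM size factor, 0.902, was the lowest of all libraries. Chi-square per degree of freedom was 50.9 and 71.4 against replicates 1 and 2 of its group, and 16.8 between replicates 1 and 2. These 2 are the libraries that stand apart below, and values whose call or size changes without them are given without them too. All 5 general epithelial markers averaged at least 1 CPM in the controls of every line. The 6 leukocyte markers summed to 0.549 to 3.27 CPM over all libraries, with PTPRC at most 0.297 CPM. The 6 stromal and endothelial markers summed to 8.39 to 31.2 CPM in 22Rv1, 5.59 to 32.4 in DU145 and 29.9 to 63.6 in PC3. Of these, 1, 1 and 3 averaged at least 1 CPM in the controls. COL1A1 was the highest of them there, at 8.85, 13.65 and 27.5 CPM. The labels do not say that libraries came from separate cultures, so p-values measure the spread between these libraries. In bulk RNA, fewer cells with a transcript and less transcript per cell cannot be told apart.

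RIPK2, the targeted kinase, was lower with every guide in every line, but its remaining level ran from 27.9% to 81.9% of control. In 22Rv1 the control libraries held 15.8, 18.2 and 16.1 CPM, the gRNA 1 libraries 9.42, 8.32 and 8.33 CPM, and the gRNA 10 libraries 5.58, 5.37 and 5.20 CPM. In DU145 the control libraries held 39.4, 44.4 and 43.5 CPM, the gRNA 2 libraries 9.87, 13.4 and 12.2 CPM, and the gRNA 10 libraries 36.4, 33.4 and 34.4 CPM. In PC3 the control libraries held 59.5, 59.3 and 62.4 CPM, the gRNA 2 libraries 21.7, 20.1 and 20.1 CPM, and the gRNA 10 libraries 25.5, 28.3 and 27.8 CPM. No library with a RIPK2 guide reached the lowest control of its line, and the 22Rv1 gRNA 1 value was -0.92 without its replicate 3 (edgeR adjusted p = 1.22e-05). RIPK2 passed the test in 5 of the 6 guide comparisons, with log2 fold changes of -0.94 ± 0.12 (SE) and -1.63 ± 0.12 in 22Rv1, -1.84 ± 0.12 for gRNA 2 in DU145, and -1.55 ± 0.06 and -1.15 ± 0.05 in PC3. The exception was gRNA 10 in DU145, at -0.29 ± 0.11 (edgeR adjusted p = 0.0614, between 0.000576 and 0.184 over the alternatives). It passed with DESeq2 (adjusted p = 0.0454) and without the libraries that stand apart (edgeR adjusted p = 0.0141), and the library label knockout went with 81.9% of the control transcript level there. A transcript level does not measure the edit or the protein.

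The 2 guides of a line left different amounts of RIPK2 transcript. In 22Rv1 the level was higher with gRNA 1 than with gRNA 10, by 0.69 ± 0.12 on the log2 scale (edgeR adjusted p = 0.00134). In DU145 and PC3 it was lower with gRNA 2 than with gRNA 10, by -1.56 ± 0.12 (edgeR adjusted p = 8.68e-06) and -0.40 ± 0.06 (edgeR adjusted p = 1.05e-06).

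**Figure D1:**
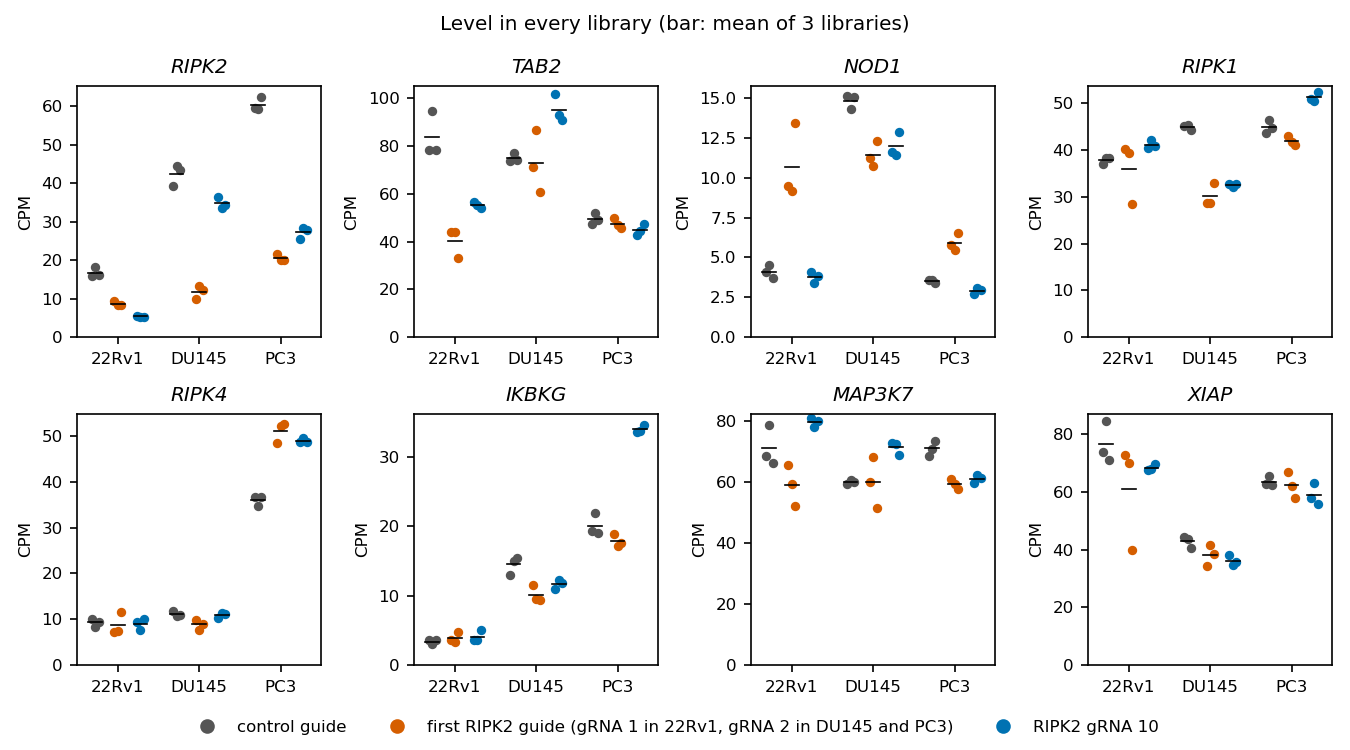
Level of 8 genes in each of the 27 libraries, as CPM on a linear axis from 0 (points, libraries; bars, mean of 3 libraries), by line and guide. RIPK2 was below the control libraries with both guides in each line, while TAB2 was lower with both guides in 22Rv1, NOD1 higher with the first guide in 22Rv1 and PC3, and IKBKG highest with gRNA 10 in PC3.

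In the control libraries the components were present at unequal levels, and the lines differed in the sensor and in RIPK2 itself. Per kilobase of exon, the kinase RIPK2 stood at 5.19 ± 0.37 CPM (SD, n = 3) in 22Rv1, 13.2 ± 0.84 in DU145 and 20.9 ± 0.60 in PC3, with no overlap between lines. NOD1, the sensor, stood at 2.11 ± 0.06 CPM per kilobase in DU145, against 0.584 ± 0.058 in 22Rv1 and 0.558 ± 0.015 in PC3. IKBKG rose in the same order as RIPK2, from 0.922 ± 0.0996 in 22Rv1 through 4.00 ± 0.36 in DU145 to 6.12 ± 0.48 CPM per kilobase in PC3. RIPK4 was highest in PC3, at 9.63 ± 0.31 CPM per kilobase against 2.69 ± 0.13 in DU145 and 2.24 ± 0.23 in 22Rv1.

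RIPK1, MAP3K7, TAB2 and XIAP varied less across the controls than RIPK2, NOD1, IKBKG and RIPK4. RIPK1 lay between 8.68 ± 0.09 CPM per kilobase in 22Rv1 and 11.4 ± 0.32 in PC3, with DU145 at 10.3 ± 0.14. MAP3K7 lay between 8.04 ± 0.08 in DU145 and 10.6 ± 0.36 in PC3, with 22Rv1 at 9.53 ± 0.87. TAB2 was lowest in PC3, at 8.86 ± 0.39, against 13.5 ± 1.46 in 22Rv1 and 12.1 ± 0.28 in DU145. XIAP was lowest in DU145, at 4.62 ± 0.22 CPM per kilobase, against 8.22 ± 0.75 in 22Rv1 and 7.59 ± 0.18 in PC3. Within a line the order of the levels differed accordingly: TAB2 led in 22Rv1, RIPK2 and TAB2 were near each other in DU145, and RIPK2 led in PC3. NOD2 was at or near the floor, with 1, 0 and 1 counts in the 22Rv1 controls, 7, 5 and 8 in the DU145 controls and 0 in each PC3 control.

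Tested across all genes, DU145 against 22Rv1 controls gave 6 of 8 members past the threshold of adjusted p below 0.05, where 75.9% of all genes tested passed. PC3 against 22Rv1 gave 5 of 8, where 80.5% of all genes passed, and PC3 against DU145 gave 7 of 8, where 75.9% passed, so the members' shares lay on both sides of the background. The log2 differences that passed included 2.73 ± 0.14 for IKBKG and 2.01 ± 0.09 for RIPK2 in PC3 against 22Rv1, and -1.92 ± 0.14 for NOD1 in PC3 against DU145. NOD2 is left out of these counts and of the counts of members below, because it entered the fits only through DU145 gRNA 10, where it was high. Its control libraries held 20 counts in all in DU145 and 2 in 22Rv1, a ratio of 9.03 (95% counting interval, 2.19 to 79.7), and 0 in PC3, at least 1.94-fold lower than in DU145 with a floor of 3 counts per library. Neighbours that did not pass were RIPK4 in DU145 against 22Rv1 (0.27 ± 0.14, edgeR adjusted p = 0.0787), TAB2 in the same pair (-0.16 ± 0.11, edgeR adjusted p = 0.183), RIPK1 in PC3 against DU145 (0.15 ± 0.09, edgeR adjusted p = 0.137), and NOD1 (-0.06 ± 0.15, edgeR adjusted p = 0.696), XIAP (-0.12 ± 0.13, edgeR adjusted p = 0.42) and MAP3K7 (0.15 ± 0.09, edgeR adjusted p = 0.12) in PC3 against 22Rv1. MAP3K7, lower in the DU145 than in the 22Rv1 controls by -0.24 ± 0.09 (edgeR adjusted p = 0.015), lost the call without 22Rv1 control replicate 2 (edgeR adjusted p = 0.108, from 0.000494 to 0.108 over the alternatives), and without that library MAP3K7 in PC3 against 22Rv1 gained one (edgeR adjusted p = 0.0304, from 0.0254 to 0.476). Without the libraries that stand apart, MAP3K7 in PC3 against 22Rv1 passed (edgeR adjusted p = 0.0254), as did RIPK4 (0.0181, from 0.0181 to 0.256 over the alternatives) and TAB2 (0.0355, from 0.0355 to 0.627) in DU145 against 22Rv1 and RIPK1 in PC3 against DU145 (0.00665, from 0.00509 to 0.280).

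**Figure D2:**
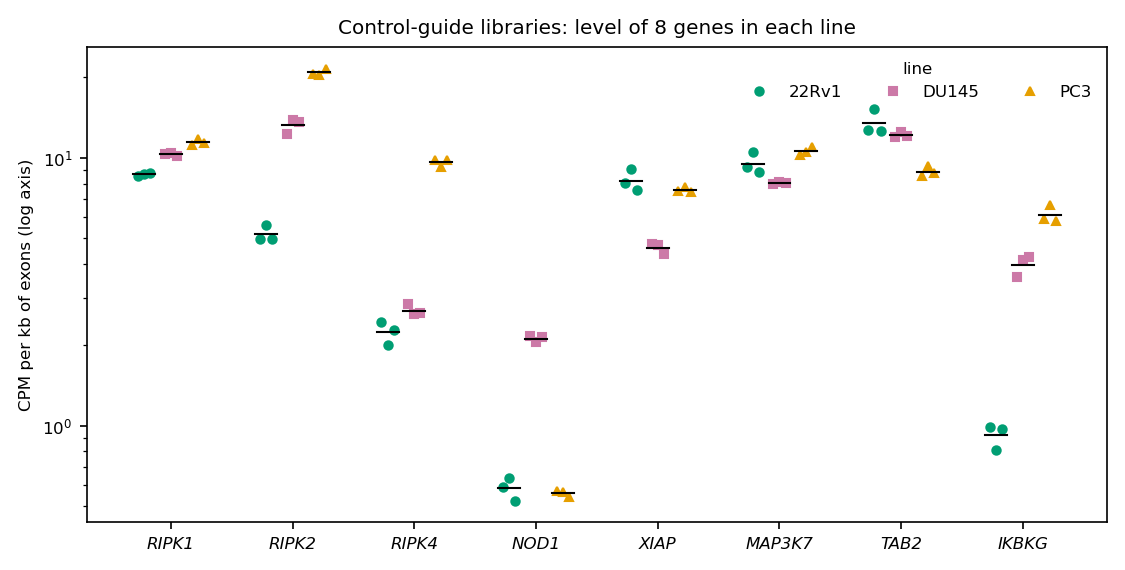
CPM per kilobase of exon in the 9 control-guide libraries (log axis; points, libraries; bars, mean of 3 libraries) for 8 genes in 22Rv1, DU145 and PC3. RIPK2 rose from 5.19 through 13.2 to 20.9, NOD1 was highest in DU145 at 2.11, and RIPK4 was highest in PC3 at 9.63.

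The promoter windows of 4 members are shown because these genes, beside RIPK2 and RIPK4, changed in the same direction with both guides of a line: TAB2 in 22Rv1, RIPK1 and NOD1 in DU145, and MAP3K7 in PC3. Each is the 250 bases before the first transcript start listed for the gene in a RefSeq table (assembly GRCh38.p14), written 5′ to 3′ on the gene's strand, with matches to the searched motifs in capitals. RIPK1 is at chr6:3063717-3063966 on the plus strand, TAB2 at chr6:149317462-149317711 on the plus strand, NOD1 at chr7:30478785-30479034 on the minus strand and MAP3K7 at chr6:90587073-90587322 on the minus strand. In GENCODE 29 the gene bodies span chr6:3063991-3115187 for RIPK1, chr6:149218641-149411613 for TAB2, chr7:30424527-30478784 for NOD1 and chr6:90513573-90587045 for MAP3K7. The TAB2 window thus lies inside the GENCODE gene body, downstream of its start, and the windows of the others lie outside theirs.
RIPK1: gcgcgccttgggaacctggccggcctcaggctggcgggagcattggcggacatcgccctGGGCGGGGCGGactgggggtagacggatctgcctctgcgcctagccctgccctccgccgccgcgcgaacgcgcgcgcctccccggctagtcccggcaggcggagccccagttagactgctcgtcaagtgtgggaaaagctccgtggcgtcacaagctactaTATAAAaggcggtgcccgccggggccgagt
TAB2: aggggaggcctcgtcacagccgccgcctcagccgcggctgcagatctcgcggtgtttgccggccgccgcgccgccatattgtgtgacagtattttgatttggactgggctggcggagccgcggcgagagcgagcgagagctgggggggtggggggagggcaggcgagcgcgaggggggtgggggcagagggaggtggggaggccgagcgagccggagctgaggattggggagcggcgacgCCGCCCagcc
NOD1: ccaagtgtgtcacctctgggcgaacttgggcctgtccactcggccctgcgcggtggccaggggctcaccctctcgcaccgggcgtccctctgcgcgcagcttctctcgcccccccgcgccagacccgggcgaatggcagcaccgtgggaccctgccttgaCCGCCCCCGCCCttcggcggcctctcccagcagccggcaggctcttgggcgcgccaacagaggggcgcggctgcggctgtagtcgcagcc
MAP3K7: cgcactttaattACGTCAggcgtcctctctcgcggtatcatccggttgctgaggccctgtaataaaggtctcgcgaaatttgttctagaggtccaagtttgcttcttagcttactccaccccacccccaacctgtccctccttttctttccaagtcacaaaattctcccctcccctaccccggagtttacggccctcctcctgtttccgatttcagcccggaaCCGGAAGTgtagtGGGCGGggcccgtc
Motifs were searched on both strands, and matches can overlap. The capitals mark GC boxes (GGGCGG) in all 4 windows, a TATA box (TATAAA) in RIPK1, and an ETS site (CCGGAAGT) and a cAMP response core (TGACGT) in MAP3K7. Over 35116 windows of the same length in the table, 42.6% held a GC box, 10.7% a TATA box, 3.42% the ETS site and 7.10% the cAMP response core. The NF-kB consensus was in 5.21% of all windows and in 0 of the 16 windows of the 7 members that matched, which says only that these letters are not in these windows. The base composition was 74.0% G and C for NOD1, 72.8% for TAB2, 70.4% for RIPK1 and 54.8% for MAP3K7, against a median of 58.0% over all windows.

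TAB2, the adaptor that binds ubiquitin chains for TAK1, fell in 22Rv1 with both guides. The control libraries held 78.4, 94.8 and 78.6 CPM, the gRNA 1 libraries 44.0, 44.1 and 33.2 CPM, and the gRNA 10 libraries 56.5, 55.5 and 53.9 CPM. Every library with a RIPK2 guide lay below every control. The log2 fold change was -1.05 ± 0.13 for gRNA 1 (edgeR adjusted p = 7.96e-05) and -0.60 ± 0.13 for gRNA 10 (edgeR adjusted p = 0.00315), and -0.94 for gRNA 1 without its replicate 3 (edgeR adjusted p = 1.62e-06). TAB2 was lower with gRNA 1 than with gRNA 10 (-0.45 ± 0.13, edgeR adjusted p = 0.0182), a call that was lost without gRNA 10 replicate 1 (edgeR adjusted p = 0.0618) or replicate 2 (0.0582), the range over the alternatives being 0.00459 to 0.0618.

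In neither DU145 nor PC3 did TAB2 pass as lower with both guides. In DU145 its libraries held 73.8, 77.0 and 74.4 CPM with the control guide, 71.3, 86.7 and 60.8 CPM with gRNA 2, and 102, 93.2 and 90.9 CPM with gRNA 10. The gRNA 2 libraries spread across the controls, while those of gRNA 10 lay above them. The rise with gRNA 10 was 0.34 ± 0.12 (edgeR adjusted p = 0.0376), and leaving out any 1 of the 6 libraries compared ended the call, with edgeR adjusted p between 0.0638 and 0.130. TAB2 was lower with gRNA 2 than with gRNA 10 in DU145 (-0.38 ± 0.12, edgeR adjusted p = 0.0245), a call lost without gRNA 2 replicate 1 (0.0611), gRNA 10 replicate 1 (0.0930) or gRNA 10 replicate 2 (0.0566) and in a fit of only the groups compared (0.0730), with edgeR adjusted p from 0.00146 to 0.0930 over the alternatives. In PC3, TAB2 fell with gRNA 10 by 0.14 on the log2 scale (edgeR adjusted p = 0.0175) and lost the call without control replicate 2 (0.104) or gRNA 10 replicate 1 (0.0985), the range over the alternatives being 0.00641 to 0.104.

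NOD1, the sensor of peptidoglycan fragments with diaminopimelic acid, rose with gRNA 1 in 22Rv1 and with gRNA 2 in PC3. It was not higher with gRNA 10 in either line. In 22Rv1 the control libraries held 4.11, 4.52 and 3.70 CPM, the gRNA 1 libraries 9.47, 9.19 and 13.4 CPM, and the gRNA 10 libraries 4.08, 3.41 and 3.81 CPM. In PC3 the control libraries held 3.60, 3.58 and 3.43 CPM, the gRNA 2 libraries 5.76, 5.47 and 6.52 CPM, and the gRNA 10 libraries 2.71, 3.08 and 2.98 CPM. The gRNA 1 libraries in 22Rv1 and the gRNA 2 libraries in PC3 lay above all others of their line. The rise was 1.38 ± 0.18 in 22Rv1 (edgeR adjusted p = 0.000124), or 1.17 without gRNA 1 replicate 3 (edgeR adjusted p = 5.97e-06). In PC3 the rise was 0.74 ± 0.12 (edgeR adjusted p = 5.49e-06). Guide against guide, NOD1 differed by 1.5 ± 0.18 in 22Rv1 (edgeR adjusted p = 0.000103) and by 1.02 ± 0.13 in PC3 (edgeR adjusted p = 2.98e-08).

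In DU145, where NOD1 was highest, it fell with both guides. The control libraries held 15.1, 14.3 and 15.03 CPM, the gRNA 2 libraries 11.3, 10.7 and 12.3 CPM, and the gRNA 10 libraries 11.6, 11.4 and 12.9 CPM. All 6 knockout libraries lay below the lowest control. The log2 fold changes were -0.38 ± 0.11 for gRNA 2 (edgeR adjusted p = 0.02) and -0.31 ± 0.11 for gRNA 10 (edgeR adjusted p = 0.0382). The first call was lost without control replicate 1 (0.0762), 2 (0.0518) or 3 (0.0724), with no filter on low counts (0.0617) and in a fit of only the groups compared (0.0685), with edgeR adjusted p from 0.00266 to 0.0762 over the alternatives, and the second was lost when any 1 of the 6 libraries compared was left out (0.0598 to 0.128), with no filter (0.0838) and with a term for the replicate number (0.0657).

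NOD2, the sensor of muramyl dipeptide, was measurable only in DU145 and, with gRNA 10, in PC3. In DU145 its counts were 7, 5 and 8 with the control guide, 2, 3 and 0 with gRNA 2, and 14, 27 and 25 with gRNA 10. The 3 groups did not overlap. Summed, the gRNA 10 libraries held 66 counts and the controls 20, a ratio of 3.43 (95% counting interval, 2.05 to 5.97). The gRNA 2 libraries held 5 counts, a ratio to the controls of 0.265 (95% counting interval, 0.0776 to 0.726), each at or under the floor. No test is given for NOD2, since it passed the filter on low counts only through the gRNA 10 libraries. In PC3 the counts were 0 in every control, 0, 1 and 0 with gRNA 2, and 4, 4 and 7 with gRNA 10, at least 1.61-fold higher than in the controls when these are set to the floor of 3 counts per library. In 22Rv1 no library with a RIPK2 guide held a NOD2 count. Intervals and floors cover counting error only.

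RIPK1, the scaffold kinase of TNF receptor signalling, fell in DU145 with both guides. The control libraries held 45.1, 45.5 and 44.3 CPM, the gRNA 2 libraries 28.7, 28.7 and 33.0 CPM, and the gRNA 10 libraries 32.8, 32.1 and 32.6 CPM. The groups with a RIPK2 guide lay well below the controls and overlapped each other. The log2 fold change was -0.58 ± 0.08 for gRNA 2 (edgeR adjusted p = 0.000676) and -0.47 ± 0.08 for gRNA 10 (edgeR adjusted p = 0.00150), the level being 67.1% and 72.4% of control. Between these guides it differed by -0.11 ± 0.08 (edgeR adjusted p = 0.324). The RIPK2 level was 27.9% of control with gRNA 2 and 81.9% with gRNA 10, and a link of the RIPK1 values to it was not tested. In PC3, RIPK1 rose with gRNA 10, from 43.7, 46.3 and 44.6 CPM to 51.0, 50.5 and 52.5 CPM (0.19 ± 0.05, edgeR adjusted p = 0.000568), and was at 42.9, 41.7 and 41.1 CPM with gRNA 2 (-0.10 ± 0.05, edgeR adjusted p = 0.0783). In 22Rv1 it passed with neither guide, and gRNA 1 replicate 3 alone lay at 28.4 CPM when the other 22Rv1 libraries lay between 37.1 and 42.1 CPM.

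RIPK4, which acts in epidermal differentiation, rose in PC3 with both guides. The control libraries held 36.6, 34.8 and 36.7 CPM, the gRNA 2 libraries 48.5, 52.3 and 52.6 CPM, and the gRNA 10 libraries 48.7, 49.6 and 48.7 CPM. The knockout libraries lay above every control and overlapped each other. The log2 fold change was 0.50 ± 0.05 for gRNA 2 (edgeR adjusted p = 3.67e-10) and 0.44 ± 0.05 for gRNA 10 (edgeR adjusted p = 3.82e-09). In 22Rv1 and DU145, where RIPK4 lay between 7.29 and 11.8 CPM in all libraries, it passed with no guide. The value in DU145 with gRNA 2 was -0.33 ± 0.12 (edgeR adjusted p = 0.0625), and it passed without gRNA 2 replicate 1 (0.0336) or replicate 3 (0.0350), with edgeR adjusted p from 0.0336 to 0.193 over the alternatives.

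MAP3K7, which encodes the kinase TAK1, fell in PC3 with both guides by a small amount. The control libraries held 68.4, 70.8 and 73.4 CPM, the gRNA 2 libraries 60.9, 59.2 and 57.6 CPM, and the gRNA 10 libraries 59.6, 62.2 and 61.2 CPM. The groups did not overlap the controls, and the log2 fold changes were -0.26 ± 0.05 (edgeR adjusted p = 9.39e-06) and -0.22 ± 0.04 (edgeR adjusted p = 7.87e-05). In 22Rv1 its libraries held 65.5, 59.1 and 52.2 CPM with gRNA 1 and 80.8, 77.9 and 79.7 CPM with gRNA 10, on either side of controls at 68.4, 78.7 and 66.0 CPM. In DU145 with gRNA 10, MAP3K7 stood at 0.25 ± 0.10 (edgeR adjusted p = 0.0666). It passed there with DESeq2 (0.0433), in a fit of only the groups compared (0.000265) and without gRNA 2 replicate 3, the library that stands apart (0.00468), with adjusted p from 0.000265 to 0.160 over the alternatives. The difference between the 22Rv1 guides was -0.43 ± 0.11 (edgeR adjusted p = 0.00987), or -0.37 without gRNA 1 replicate 3 (edgeR adjusted p = 0.00319). Against control in 22Rv1, gRNA 1 gave -0.27 ± 0.11 (edgeR adjusted p = 0.0592), which passed without gRNA 1 replicate 1 (0.0290) and with DESeq2 (0.0418), with edgeR and DESeq2 adjusted p from 0.0290 to 0.164 over the alternatives.

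IKBKG, which encodes the IKK scaffold NEMO, changed in opposite directions with the guides of PC3. The control libraries held 19.3, 21.9 and 19.0 CPM, the gRNA 2 libraries 18.9, 17.1 and 17.6 CPM, and the gRNA 10 libraries 33.6, 33.8 and 34.6 CPM. With gRNA 10 every library stood far above the others, a rise of 0.76 ± 0.06 (edgeR adjusted p = 2.80e-12), and the guides differed by -0.93 ± 0.06 (edgeR adjusted p = 3.67e-14). The fall with gRNA 2, -0.17 ± 0.07 (edgeR adjusted p = 0.0344), was lost without control replicate 2 (-0.10, edgeR adjusted p = 0.234), gRNA 2 replicate 2 (0.131) or gRNA 2 replicate 3 (0.0837), and with DESeq2 (0.0732), the range over the alternatives being 0.0195 to 0.234. In DU145, IKBKG fell with gRNA 2, from 13.0, 15.05 and 15.5 CPM to 11.5, 9.45 and 9.40 CPM (-0.52 ± 0.12, edgeR adjusted p = 0.00943), and stood at 11.0, 12.3 and 11.8 CPM with gRNA 10 (-0.31 ± 0.12, edgeR adjusted p = 0.0668). This DU145 value of IKBKG passed in a fit of only the groups compared (edgeR adjusted p = 0.00496) and without gRNA 2 replicate 3 (0.0177), the range over the alternatives being 0.00496 to 0.209. In 22Rv1 it stayed between 2.96 and 4.99 CPM and passed with no guide.

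The sources used here do not state whether counting used strand, so reads from the opposite strand cannot be told apart from those of IKBKG, and their part in its values was not tested. The pseudogene copy IKBKGP1 held at most 10 counts in any library. How reads matching both the gene and this copy were assigned is not stated, and their part in the IKBKG values was not tested.

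XIAP, the ubiquitin ligase that modifies RIPK2, passed in 0 of the 6 guide comparisons by edgeR and in 0 by DESeq2, and in 1 at an unadjusted p below 0.05. In PC3 its libraries held 62.7, 65.4 and 62.5 CPM with the control guide, 66.9, 62.2 and 58.0 CPM with gRNA 2, and 58.0, 63.2 and 55.9 CPM with gRNA 10, so the groups overlapped. With gRNA 10 the DU145 libraries held 38.1, 34.7 and 35.7 CPM against controls at 44.4, 43.8 and 40.5 CPM, and the 22Rv1 libraries 67.5, 67.9 and 69.7 CPM against controls at 74.0, 84.7 and 71.0 CPM. In these 2 lines every gRNA 10 library lay below every control. The log2 values ran from -0.33 ± 0.19 (22Rv1 gRNA 1) to -0.03 ± 0.05 (PC3 gRNA 2). The value for 22Rv1 gRNA 1 was -0.11 without replicate 3, whose 40.0 CPM was the lowest of the line. For gRNA 10, XIAP stood at -0.25 ± 0.09 in DU145 (edgeR adjusted p = 0.0592) and -0.11 ± 0.05 in PC3 (edgeR adjusted p = 0.0694). Both passed in a fit of only the groups compared (edgeR adjusted p = 0.00164 and 0.0444), the DU145 value also without gRNA 2 replicate 3 (0.0180) and ranging from 0.00164 to 0.177 over the alternatives, and the PC3 value also passed without gRNA 10 replicate 2 (0.0122, and from 0.0122 to 0.283 over the alternatives).

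**Figure D3:**
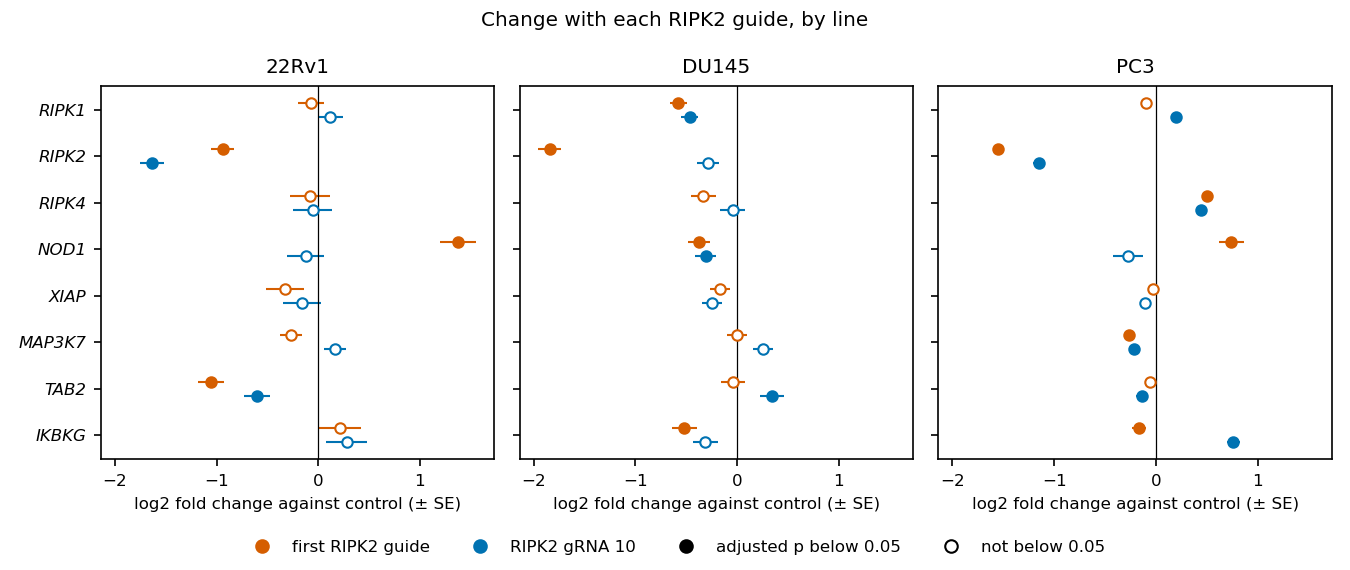
Log2 fold change of 8 genes against the control guide of the same line (points; bars, ± SE; filled, edgeR adjusted p below 0.05), for the first RIPK2 guide and gRNA 10 on a common linear axis. TAB2 lay at -1.05 and -0.60 in 22Rv1, RIPK1 at -0.58 and -0.47 in DU145 and RIPK4 at 0.50 and 0.44 in PC3, while IKBKG in PC3 lay at -0.17 and 0.76.

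Counted over the 8 members other than NOD2 and RIPK3, 3 of 8 passed with gRNA 1 in 22Rv1 (1 higher, 2 lower), where 48.5% of all genes tested did (25.6% higher, 22.9% lower). With gRNA 10, 2 of 8 passed (0 higher, 2 lower), where 40.6% of all genes did (20.0% higher, 20.6% lower). In DU145, 4 of 8 passed with gRNA 2 (0 higher, 4 lower), where 34.0% of all genes did (17.1% higher, 17.0% lower), and 3 of 8 with gRNA 10 (1 higher, 2 lower), where 40.0% did (20.2% higher, 19.8% lower). In PC3, 5 of 8 passed with gRNA 2 (2 higher, 3 lower), where 63.6% of all genes did (32.1% higher, 31.5% lower), and 6 of 8 with gRNA 10 (3 higher, 3 lower), where 73.5% did (37.9% higher, 35.6% lower). The members' shares thus lay on both sides of those of all genes, and RIPK2 is the gene the guides target. The count with gRNA 10 in DU145 fell to 1 when any 1 of the 6 libraries compared was left out. Over all genes, 4402 to 4704 passed in those fits, beside 5956 in the main fit. The member count rose to 7 in a fit of only the groups compared, where 9749 of all genes passed. It also rose to 7 without gRNA 2 replicate 3, and the number over all genes in that fit is not given here. These shifts are therefore not read as a result about the members. The median log2 fold change of the 8 members ran from -0.35 (DU145 gRNA 2) to -0.08 (PC3 gRNA 2), beside 0.01 for all genes in each of these. Guide against guide, 4 of 8 members passed in 22Rv1 (35.6% of all genes), 2 of 8 in DU145 (38.8%) and 4 of 8 in PC3 (73.4%). Besides RIPK2, no member passed in the same direction with both guides in more than 1 line.

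The effect of gRNA 10, the guide shared by the 3 lines, differed between lines for several members. DU145 differed from 22Rv1 in 4 of 8 members, where 44.7% of all genes differed, PC3 from 22Rv1 in 4 of 8 (47.6% of all genes) and PC3 from DU145 in 6 of 8 (48.1% of all genes). RIPK2 fell less in DU145 than in 22Rv1, by 1.34 ± 0.14 on the log2 scale (edgeR adjusted p = 1.37e-08). TAB2 fell in 22Rv1 and rose in DU145, a difference of 0.94 ± 0.15 (edgeR adjusted p = 1.47e-05). IKBKG differed by 1.05 ± 0.17 between PC3 and DU145 (edgeR adjusted p = 1.42e-05). The gRNA 2 effect differed between PC3 and DU145 in 3 of 8 members (35.9% of all genes), with NOD1 at 1.11 ± 0.19 (edgeR adjusted p = 4.14e-05).

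Of 50 other genes of the pathway in 6 lists, 44 to 47 were tested in a line, and, like the members, they passed most often in PC3, where most genes did. In 22Rv1, 15 of 44 passed with gRNA 1 (6 higher, 9 lower; 48.5% of all genes) and 14 of 44 with gRNA 10 (6 higher, 8 lower; 40.6%). In DU145, 14 of 45 passed with gRNA 2 (11 higher, 3 lower, against 34.0% of all genes) and 18 of 45 with gRNA 10 (13 higher, 5 lower, against 40.0%). In PC3, 35 of 47 passed with gRNA 2 (17 higher, 18 lower, against 63.6% of all genes) and 33 of 47 with gRNA 10 (20 higher, 13 lower, against 73.5%). None of the 50 passed in the same direction in all 6 guide comparisons. The lists were drawn up with earlier results of these data known.

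In DU145, of the 8 deubiquitinases and other inhibitors of NF-kB signalling listed, 5 rose and 1 fell with gRNA 2, where 17.1% of all genes rose and 17.0% fell. With gRNA 10, 7 rose and 0 fell, where 20.2% and 19.8% of all genes did, with median log2 values of 0.36 and 0.85 beside 0.01 and 0.00 for all genes. TNFAIP3, the ubiquitin-editing enzyme A20, went from 10.8 ± 0.79 CPM (SD, n = 3) to 55.3 ± 6.62 with gRNA 2 and 39.1 ± 1.05 with gRNA 10 (log2 fold change 2.35 ± 0.11 and 1.85 ± 0.11). NFKBIA, which encodes IkB-alpha and holds NF-kB in the cytosol, rose by 1.16 ± 0.08 and 0.97 ± 0.08. BIRC3, the ligase cIAP2 that also modifies RIPK2 and RIPK1, rose from 23.2 ± 2.25 CPM to 104 ± 14.3 with gRNA 2 and 480 ± 32.2 with gRNA 10 (2.17 ± 0.12 and 4.37 ± 0.13). In all, 9 of the 50 genes passed with both guides in DU145, 8 in the same direction and the other in opposite directions. The 8 were all higher: BIRC2, BIRC3, TNFAIP3, CYLD, OTULIN, TNIP1, NFKBIA and IKBKE. Over all genes tested in DU145, 16.1% passed with both guides in the same direction (8.05% higher, 8.02% lower). The largest adjusted p over the alternatives exceeded 0.05 for CYLD (0.0819 with gRNA 2, 0.0944 with gRNA 10) and for OTULIN with gRNA 2 (0.0525).

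In 22Rv1 the same list of 8 inhibitors held 0 higher and 3 lower with gRNA 1, and 1 higher and 2 lower with gRNA 10, where 48.5% and 40.6% of all genes passed. CYLD, which removes ubiquitin chains from RIPK1 and RIPK2, fell from 33.7 ± 3.87 CPM to 22.0 ± 4.82 and 17.0 ± 0.91 (-0.62 ± 0.16 and -0.98 ± 0.16), the first being -0.45 without gRNA 1 replicate 3 (edgeR adjusted p = 0.00173). TNFRSF1A, the TNF receptor above RIPK1, rose by 0.78 ± 0.09 and 0.63 ± 0.09, and RNF31, the catalytic subunit of the linear ubiquitin ligase, by 0.59 ± 0.11 and 0.48 ± 0.11. ERBIN, which binds NOD2, fell by 0.50 and 0.44 on the log2 scale with the guides, and the second call was lost without gRNA 10 replicate 1 (edgeR adjusted p = 0.0758, from 0.00133 to 0.0758 over the alternatives).

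In PC3, 5 of the 8 inhibitors were higher and 2 lower with gRNA 2, and 3 higher and 2 lower with gRNA 10, where 63.6% and 73.5% of all genes passed. NFKBIA rose from 13.8 ± 1.11 CPM to 38.2 ± 2.04 and 67.7 ± 8.06 (1.46 ± 0.09 and 2.29 ± 0.09), whereas TNFAIP3 rose with gRNA 2 (0.63 ± 0.14) and fell with gRNA 10 (-0.86 ± 0.17). ERBIN rose in PC3, by 0.67 ± 0.05 and 0.64 ± 0.05. CASP10, an initiator caspase related to CASP8, fell from 5.48 ± 0.19 CPM to 2.20 ± 0.58 and 1.46 ± 0.22 (-1.31 ± 0.15 and -1.90 ± 0.17). SLC15A3, an endosomal transporter of NOD ligands, was low, at 1.05 ± 0.18 CPM in the controls, and fell by 2.37 and 0.81 on the log2 scale; the second call was lost without PC3 control replicate 1 (edgeR adjusted p = 0.0876), control replicate 2 (0.0587) or gRNA 10 replicate 2 (0.132) and with DESeq2 (0.0924), the range over the alternatives being 0.0156 to 0.132.

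**Figure D4:**
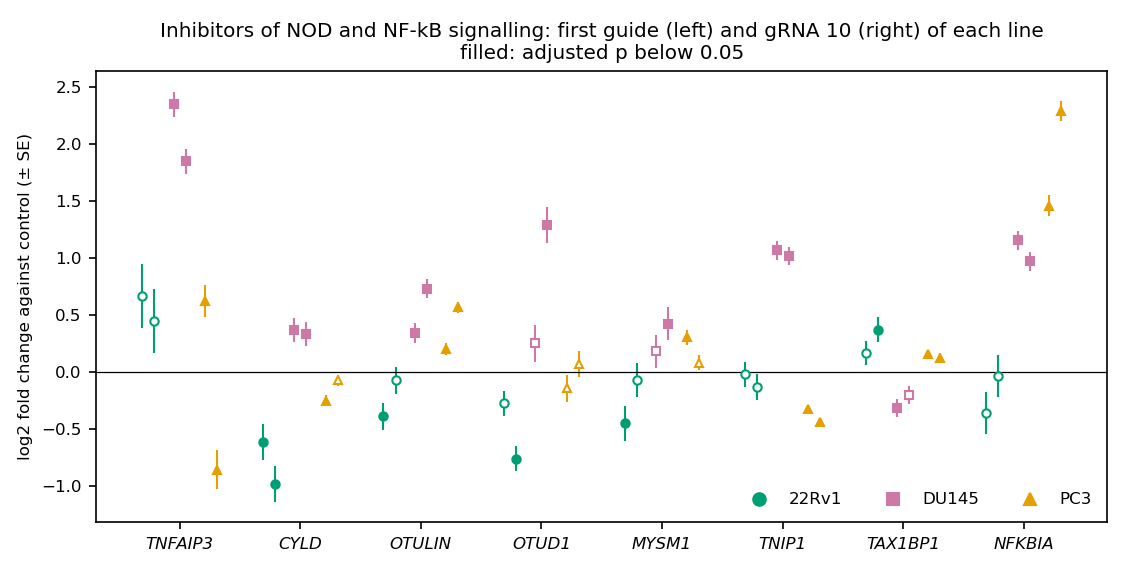
Log2 fold change against control (points; bars, ± SE; filled, edgeR adjusted p below 0.05) of 8 inhibitors of NOD and NF-kB signalling, with the first guide at left and gRNA 10 at right for each line. TNFAIP3 lay at 2.35 and 1.85 in DU145 and NFKBIA at 1.46 and 2.29 in PC3, while CYLD lay at -0.62 and -0.98 in 22Rv1.

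Among 14044 genes compared by their means in the 9 groups, those most like RIPK2 were FOXO4 (Pearson r = 0.959), NOVA2 (0.942) and VPS8 (0.940). Those most like NOD1 were ADAMTS6 (0.945), ME3 (0.943) and OSBPL3 (0.942), and those most like RIPK4 were LMO7 (0.992), ARSK (0.992) and TSNARE1 (0.991). The 9 points share lines and control cells, and the values are a description of these groups.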

How the data were processed

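The 27 libraries, 3 for each of 9 groups, measured bulk RNA. Per the labels' protocols, total RNA was isolated with the RNeasy Mini Kit and read as 150-base pairs from strand-specific mRNA libraries on a DNBSEQ instrument. The submitters' processing notes name FastQC, STAR, edgeR and hg38. The aligner settings, the annotation and whether counting used strand are not given in the sources used here. The values are unnormalized counts of reads per gene, which the authors deposited as 1 table for each line, with 24385, 23534 and 23464 rows for 22Rv1, DU145 and PC3. Symbols listed more than once, 6, 2 and 2, were summed. Columns were matched to samples by their library names.

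Counts were fitted with edgeR 4.0.16 in R 4.3.3 (TMM normalization, filterByExpr with a minimum count of 10 and total of 15, robust quasi-likelihood F test), with Benjamini-Hochberg adjustment over all genes tested and a threshold of 0.05. Each line was fitted alone with its 9 libraries for guide comparisons, testing 15198, 14908 and 14718 genes. All 27 libraries were fitted together, on 16322 of the 20089 symbols in all 3 tables, for comparisons between lines. The standard error was the log2 fold change divided by the square root of F. CPM used TMM library sizes, and per-kilobase values used union exon lengths of GENCODE 29. The spread between libraries of a group beyond counting noise (common BCV) came to 14.2% for 22Rv1, 12.3% for DU145 and 3.55% for PC3, so smaller changes could pass in PC3. The 22Rv1 and DU145 values include the libraries that stand apart. The fits were also run on simulated counts with the same spread for all genes and libraries of a line, and the outcome is not reported here. Alternatives were RLE size factors, DESeq2 1.42.0, no filter, at least 10 counts in every library, a replicate block, only the groups compared, and each library left out. A fit without the 2 libraries that stand apart was chosen after seeing the data.

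NOD2 passed the filter only through DU145 gRNA 10, so it was given as counts with no test, with 95% exact conditional intervals or a floor of 3 counts per library. Other pathway genes were named where both guides of a line passed in the same direction with no overlap in CPM, up to 2 per direction by the larger of their smaller changes; NFKBIA in DU145, TNFAIP3 in PC3 and the remaining genes of the list of 8 were named after their values were seen. Those most like RIPK2, NOD1 and RIPK4 were the 3 of highest Pearson correlation over log2(CPM + 0.01) group means. The members and all lists were chosen with earlier results of these data known. Promoter windows came from RefSeq (GRCh38.p14), where 7 of the 10 members matched. Libraries of 1 group differed by more than sampling noise, with chi-square per degree of freedom from 1.77 to 194, so none was counted as a duplicate. Some items were left out and are not reported here.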

Additional observations from a re-analysis of the deposited data

Results flagged for a closer look

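The effect of 1 guide differed between lines by a direct test of the difference, from the fit of all 27 libraries, in 17 of 32 differences tested for 8 members. Of all genes tested, 44.7% differed for gRNA 10 in DU145 against 22Rv1, 47.6% in PC3 against 22Rv1 and 48.1% in PC3 against DU145. For gRNA 2 in PC3 against DU145 the share was 35.9%. Values are log2 differences of effects with edgeR adjusted p, and comparisons that share a line share its control libraries.

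For gRNA 10, DU145 against 22Rv1, RIPK2 differed by 1.34 (1.37e-08) and TAB2 by 0.94 (1.47e-05), higher in DU145. RIPK1 differed by -0.59 (0.000442) and IKBKG by -0.60 (0.0162), lower in DU145, and IKBKG lost the call without 22Rv1 control replicate 2 (0.0529) or 22Rv1 gRNA 10 replicate 3 (0.0921), from 0.00544 to 0.0921 across alternatives.

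For gRNA 10, PC3 against 22Rv1, MAP3K7 differed by -0.42 (0.00749), RIPK2 by 0.44 (0.00905), RIPK4 by 0.46 (0.0405) and TAB2 by 0.42 (0.0244). RIPK4 lost the call without any 1 of 7 libraries (0.0532 to 0.138; across alternatives from 0.00167): 22Rv1 control replicates 1 and 3, 22Rv1 gRNA 10 replicate 2, PC3 control replicate 2 and PC3 gRNA 10 replicates 1, 2 and 3. TAB2 lost it without 22Rv1 control replicate 2 (0.0858), 22Rv1 gRNA 10 replicate 3 (0.0524), PC3 control replicate 1 (0.0643), PC3 control replicate 3 (0.0515) or PC3 gRNA 10 replicate 3 (0.0601), from 0.000499 to 0.0858 across alternatives.

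For gRNA 10, PC3 against DU145, RIPK1 differed by 0.63 (0.000176), IKBKG by 1.05 (1.42e-05), RIPK4 by 0.45 (0.0386), MAP3K7 by -0.50 (0.00179), TAB2 by -0.51 (0.00687) and RIPK2 by -0.89 (1.68e-06). RIPK4 lost the call without any 1 of 7 libraries (0.0501 to 0.0901; across alternatives from 0.000102): DU145 control replicates 1 and 3, DU145 gRNA 10 replicate 1, PC3 control replicates 1 and 2 and PC3 gRNA 10 replicates 2 and 3.

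For gRNA 2, PC3 against DU145, NOD1 differed by 1.11 (4.14e-05), RIPK4 by 0.83 (0.000737) and RIPK1 by 0.47 (0.00485).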

How the results depend on the processing

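Of 23 member calls of a guide against control, NOD2 left out throughout, 18 stayed on their side of the threshold under every alternative run, as did 8 of 10 guide against guide, 16 of 18 between controls and 13 of 17 between effects. RLE size factors changed none. The main fits did not pair libraries by the replicate numbers of the titles. Same-numbered libraries correlated from -0.145 to 0.458 in 22Rv1, -0.310 to 0.130 in DU145 and -0.0945 to 0.154 in PC3. In 22Rv1, DU145 and PC3, 5, 4 and 3 of 9 libraries correlated best with their own number. Numbers in the library names differ from those of the titles in some groups, and pairing by library names was not tested. With the replicate block, NOD1 with DU145 gRNA 10 (adjusted p = 0.0657) and RIPK1 between the DU145 and 22Rv1 controls (0.173) missed the threshold, XIAP with PC3 gRNA 10 passed (0.0435), and MAP3K7 with DU145 gRNA 2 turned to -0.0062.

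In a fit of only the groups compared, genes called with DU145 gRNA 2 went from 5072 to 3335, and with gRNA 10 from 5956 to 9749. Without the libraries that stand apart, the gRNA 2 effect in PC3 against DU145 called 5 members in place of 3. The number over all genes in that fit is not given here, so the rise is not read as a result about the members. With single libraries left out, genes called for this difference ran from 5088 to 6267, beside 5855 in the main fit. Uncalled values that changed sign were, without those libraries, RIPK1 with 22Rv1 gRNA 1 (0.063), XIAP between the 22Rv1 guides (0.049) and TAB2 with DU145 gRNA 2 (0.077); with no filter, RIPK4 for gRNA 10 between DU145 and 22Rv1 (-0.0035); and with at least 10 counts, TAB2 for gRNA 2 between PC3 and DU145 (0.022). The causes were not tested.

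With each library of the groups compared left out, genes called with DU145 gRNA 2 ran from 3259 to 6957. Uncalled values crossed 0 for 22Rv1 gRNA 1 against control for RIPK1 (-0.16 to 0.063) and RIPK4 (-0.34 to 0.034), for gRNA 10 for RIPK4 (-0.13 to 0.054), and between these guides for RIPK4 (-0.30 to 0.087), XIAP (-0.31 to 0.049) and IKBKG (-0.25 to 0.11). They crossed 0 for DU145 gRNA 2 for MAP3K7 (-0.099 to 0.10) and TAB2 (-0.18 to 0.077), for DU145 gRNA 10 for RIPK4 (-0.068 to 0.0044), for PC3 gRNA 2 for XIAP (-0.081 to 0.023), and for NOD1 between the PC3 and 22Rv1 controls (-0.14 to 0.0072). Between lines they did so for gRNA 10 for RIPK4 in DU145 against 22Rv1 (-0.10 to 0.086), XIAP in PC3 against 22Rv1 (-0.055 to 0.074) and NOD1 in PC3 against DU145 (-0.035 to 0.076), and for gRNA 2 for TAB2 (-0.13 to 0.12). Depth limits NOD2, whose counts did not exceed 27 in any library.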
